A study of Mus musculus with 7 samples.

Results

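The mitochondrial solute carriers of the SLC25 family were examined in left ventricle RNA of male mice aged 21 months. Genes of the array whose symbol begins with Slc25a were taken, without Slc25a20, and each was read from its probe set with the highest mean intensity over all 7 arrays. This gave 32 of 12393 named genes. Of these, 30 lay above the 40th percentile of their own array on at least 3 arrays and were tested, and the dim Slc25a2 and Slc25a24 were not. The 14 further family members of the RefSeq gene table had no probe set that named them alone and were not analysed here. They include Slc25a12 of the amino acid carriers and Slc25a1 of the di- and tricarboxylate carriers.

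The study compared 3 mice labelled eNOS knockout (eNOS -/-), M4, M10 and M140, with 4 labelled wild type (+/+), M23, M125, M128 and M158, with 1 array per mouse. Endothelial nitric oxide synthase, eNOS, is the nitric oxide-making enzyme of the vessel lining, encoded by Nos3. The labels give the aim as expression differences that accompany heart failure in old knockout males, and exercise appears as a keyword; the exercise state of each mouse, the strain and the design of the deletion are not stated in them. Values are single-colour deposited intensities on a linear scale. They are given in the order knockout M4, M10 and M140 against wild-type M23, M125, M128 and M158, and a difference is the knockout minus the wild-type mean of log2(intensity + 16), given ± its standard error from limma. The lowest value of each array stays well above 0, and each array has an upper limit; both make differences look smaller.

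SLC25 proteins are small carriers of the inner mitochondrial membrane that exchange nucleotides, phosphate, carboxylates, amino acids, cofactors and metal ions between cytosol and matrix. Each is built from a repeat of paired membrane-spanning helices and shuttles its substrate by opening alternately to either side. In heart muscle the ADP/ATP and phosphate carriers feed ATP synthase and export its product, and the aspartate/glutamate and oxoglutarate/malate carriers move reducing equivalents inward. A few members sit elsewhere, such as Slc25a17 of the peroxisome and Slc25a46 of the outer mitochondrial membrane.

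Nos3 itself read 1145, 1413 and 1135 against 791, 1163, 872 and 1058, so that the targeted transcript was not lower on the arrays labelled knockout (difference 0.35 ± 0.15, limma adjusted p = 0.42). Where this probe set lies relative to the disruption is unknown here, so that it does not check the labels, and directions below are those of the labels. The labelled tissue matched its markers: on each of the 7 arrays, 6 of 8 ventricular muscle markers reached the upper limit. The atrial marker Myl7 was high on knockout M10 (17557) and wild-type M125 (16097), against 356 to 2926 on the others. Of the further atrial markers, Myl4 and Sln were also highest on these arrays. Nppa was not: it read 37741 to 45540 on the knockout arrays, at the limit on M4 and M140, against 6717 to 32820 on the wild-type arrays. The summed macrophage markers ran from 15752 to 17124 on knockout arrays and from 11335 to 13579 on wild-type arrays, without overlap. Csf1r, by far the brightest, Cd68, Cd163 and the dim Fcgr1 each lay higher on every knockout array. Adgre1 overlapped, at 2254 to 2713 against 2008 to 2453. The summed fibroblast markers overlapped too, from 19421 on M10 to 57707 on M140 among the knockout arrays against 24848 to 37968. The part of either cell type in any carrier difference was not tested. Only hybridization day 1 held both groups (knockout M140 and wild-type M128), and knockout M4 and M10 shared day 3. In bulk tissue, fewer cells of a type and less RNA per cell cannot be told apart.

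One iron carrier read about 2.06-fold higher on the knockout arrays. A pyrimidine nucleotide, a glutamate, a basic amino acid and an unassigned carrier read lower. The ADP/ATP, phosphate and oxoglutarate/malate carriers of the heart overlapped or touched between the groups or stood at the upper limit. None of the 30 tested carriers passed an adjusted p of 0.05 by limma, and 0 of 8867 genes did. At an unadjusted p under 0.05, 3 carriers were lower (Slc25a33, Slc25a35 and Slc25a22) and 1 was higher (Slc25a37), where 5.4% of tested genes were lower and 6.77% higher. Together these are 4 of 30, or 13.3%, against 12.2% of all tested genes. Whether the family differed from the array as a whole was not tested. The 3 knockout arrays lay wholly below the 4 wild-type arrays for 4 carriers (Slc25a29 in addition) and wholly above them for 1, 5 of 30 or 16.7% in all, against 10.2% of tested genes (4.89% below and 5.29% above). The median difference over the 30 carriers was 0.00095 on the log2 scale and that over all tested genes was -0.0027. Leaving aside Slc25a4, which was at the upper limit throughout, 14 carriers lay below 0 and 15 above it.

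**Figure D1:**
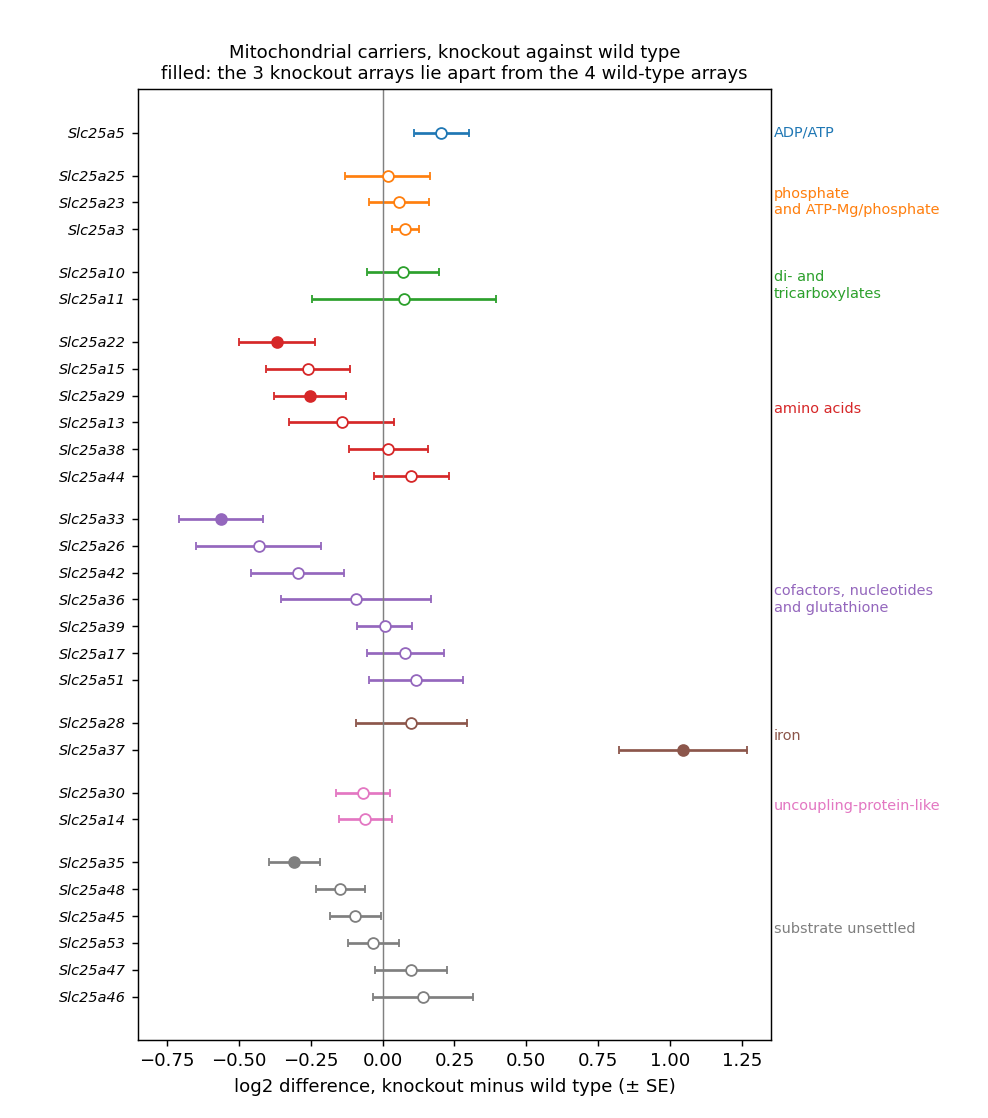
The difference of each tested carrier below the upper limit (points, log2 scale, knockout minus wild type) with its standard error (bars), grouped by substrate. Slc25a37 stands at 1.05, the 4 other filled points lie between -0.56 and -0.25, and the 24 open points, whose groups overlap, lie between -0.43 and 0.20.

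Upstream sequences are shown for the carriers that read lower on every knockout array than on every wild-type array, since these members share a direction; RefSeq's promoter table (GRCm38.p6) matched 3 of the 5 non-overlapping carriers, Slc25a33, Slc25a29 and Slc25a22. Each run gives the 250 bases before the annotated start, 5′ to 3′ on the gene's own strand, and for Slc25a22, which has 3 annotated starts, the most upstream one. Capitals mark matches, on either strand, to the Sp1 box GGGCGG, the CCAAT box CCAAT, the E-box CACGTG, the NRF1 motif, the oestrogen-related receptor motif TNAAGGTCA and the GATA motif AGATAA, none of which contains another.

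Slc25a33, chr4:149774268-149774517, minus strand: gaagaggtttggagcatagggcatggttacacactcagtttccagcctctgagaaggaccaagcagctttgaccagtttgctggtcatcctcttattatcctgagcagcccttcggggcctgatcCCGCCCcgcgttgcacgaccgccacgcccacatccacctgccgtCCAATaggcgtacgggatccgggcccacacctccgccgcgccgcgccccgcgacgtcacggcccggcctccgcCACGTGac

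Slc25a29, chr12:108835877-108836126, minus strand: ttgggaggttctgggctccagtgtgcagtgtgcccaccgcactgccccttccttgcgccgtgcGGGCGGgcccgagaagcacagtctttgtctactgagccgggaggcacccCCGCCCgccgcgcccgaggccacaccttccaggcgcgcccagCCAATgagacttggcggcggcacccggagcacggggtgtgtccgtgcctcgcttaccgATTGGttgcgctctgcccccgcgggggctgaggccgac

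Slc25a22, chr7:141437875-141438124, minus strand: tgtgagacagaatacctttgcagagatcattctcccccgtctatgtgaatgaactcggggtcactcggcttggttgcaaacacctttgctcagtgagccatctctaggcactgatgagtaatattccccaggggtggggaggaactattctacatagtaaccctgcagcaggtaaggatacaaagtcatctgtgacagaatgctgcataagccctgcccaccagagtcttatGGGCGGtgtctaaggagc

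The Slc25a33 window held 1 Sp1 box, 1 CCAAT box and 1 E-box, the last of them just before the start. That of Slc25a29 held 2 Sp1 and 2 CCAAT boxes, and the one shown for Slc25a22 a single Sp1 box. Of the other starts of Slc25a22, the second held 3 Sp1 boxes and 1 CCAAT box, at 57.2% GC, and the third 1 Sp1 box. Of 32851 RefSeq windows of this length, 32.7% held the Sp1 box, 33.8% the CCAAT box and 6.02% the E-box. Of the 34 windows of 25 carrier genes, 27 held an Sp1 box, 18 a CCAAT box and 6 an E-box, and their median GC content was 57.4% with 12 CpG, against 52.4% and 6 over all windows. The NRF1 and oestrogen-related receptor motifs, at 0.782% and 1.14% of all windows, were in none of the carrier windows, and the GATA motif, at 9.99%, was in 2 of the 34. GC content was 64.4% for Slc25a33, 71.2% for Slc25a29 and 50.0% for the start of Slc25a22 shown.

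The iron carriers of the family, the mitoferrins, bring iron into the matrix for haem and iron-sulphur cluster synthesis. Slc25a37 (mitoferrin 1) does so chiefly in red cell precursors and Slc25a28 (mitoferrin 2) in most tissues. Slc25a37 (1417750_a_at) read 3450.2, 3310.1 and 1881 against 1540.3, 1273, 1154 and 1419. Every knockout array was above every wild-type array, with M4 and M10 far above and M140 nearer to the highest wild type, M23. The means were 2880.4 ± 868 (SD, n = 3) against 1347 ± 169 (SD, n = 4), a difference of 1.05 ± 0.22 with a limma adjusted p of 0.192 (unadjusted p = 0.00149) and a two-sided exact permutation p of 0.0286, the smallest possible with 35 splits. Without knockout M140 the difference was 1.33 and passed (limma adjusted p = 0.0393), as 16 of 8867 genes did. That fit leaves knockout M4 and M10, both of day 3, which held no wild-type array, so that genotype and day cannot be told apart. Within hybridization day 1, M140 minus M128, the Slc25a37 difference was 0.70. With limma array weights it also passed, at 1.15 (adjusted p = 0.0318), where 405 of 8867 genes passed.

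Slc25a28 read 3047, 3921 and 2301 against 2843, 3226, 2459.6 and 2788, with knockout M10 highest and knockout M140 lowest of the 7 arrays. Its difference was 0.10 ± 0.19, with a 95% interval of -0.35 to 0.55 and a limma adjusted p of 0.897. Whether the mitoferrins differed from each other in their response was not tested.

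Red blood cell genes were also high on knockout M4 and M10. Alas2, which makes the first haem precursor in red cell precursors, read 6236, 6484 and 2598 against 1649, 1675, 2123 and 2050.3, with knockout M140 nearest to the wild type as for Slc25a37. Its difference was 1.33 ± 0.31 (limma adjusted p = 0.222), and 0.29 within day 1. The haemoglobin chain Hbb-b2 read 2257, 2996 and 2089 against 1722, 1722, 2065 and 1776 and differed by 0.41. Slc4a1, the anion exchanger of the red cell membrane, was too dim to be tested but lay apart, at 677, 812 and 493 against 465, 443, 427 and 462. Of the 7 red blood cell markers 5 had a probe set: these 3 were higher on every knockout array than on every wild-type array, while Epb42, at 449, 524 and 496 against 524, 537, 533 and 549, and the dim Hba-a1 were not. The summed level of the 5 ran from 5979.7 to 11124 on knockout arrays and from 4637 to 5447 on wild-type arrays. Their part in the Slc25a37 difference was not tested. Slc25a38, the glycine carrier needed for the first haem precursor, had overlapping groups at 1557, 1870.0 and 1506 against 1359, 1886, 1699 and 1557 (difference 0.020 ± 0.14, limma adjusted p = 0.974, interval -0.30 to 0.34). Abcb10, a transporter known to stabilise mitoferrin 1, differed by -0.088 ± 0.15 (limma adjusted p = 0.874).

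**Figure D2:**
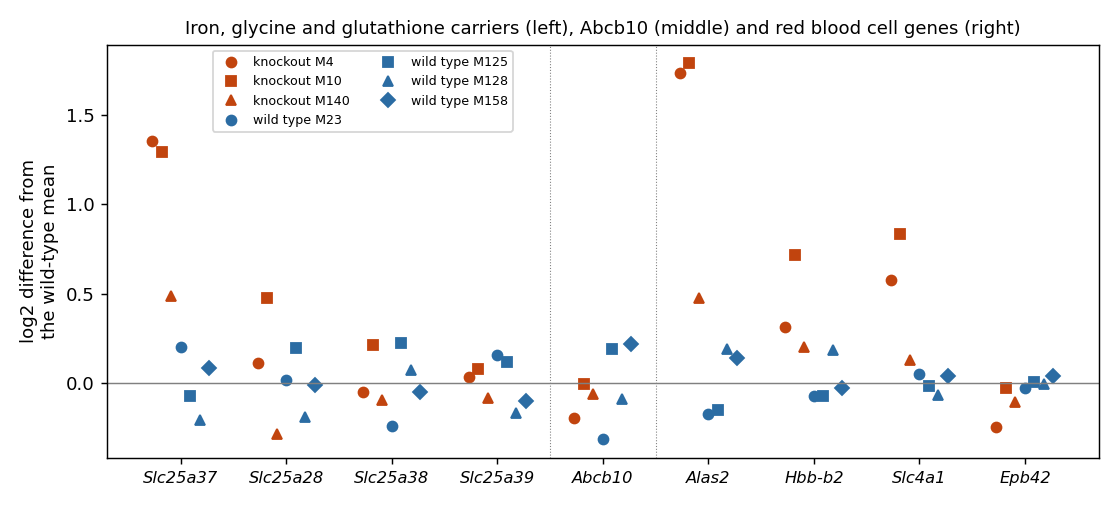
Each array's log2(intensity + 16) minus the wild-type mean (y axis) for iron, glycine and glutathione carriers, for Abcb10 and for red blood cell genes (x axis), with knockout arrays in orange and wild-type arrays in blue. For Slc25a37, Alas2 and Slc4a1 knockout M140 is the lowest of the knockout arrays and still above the wild type, while Slc25a28, Slc25a38 and Slc25a39 overlap between groups.

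Among the carriers of cofactors, nucleotides and glutathione, Slc25a33, the pyrimidine nucleotide carrier induced by insulin and growth factor signals, had the lowest difference of the 29 tested carriers below the upper limit. It read 1309.7, 1123 and 1207 against 1542, 2043, 2135 and 1548. The knockout arrays lay close together and below every wild-type array, and the wild-type arrays fell into M125 and M128 above and M23 and M158, both of day 4, below. The means were 1213 ± 93.5 (SD, n = 3) against 1817 ± 316 (SD, n = 4), a difference of -0.56 ± 0.15 (limma adjusted p = 0.255; unadjusted p = 0.00497; exact permutation p = 0.0286). Within day 1 it was -0.81.

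Slc25a36, the other pyrimidine nucleotide carrier, read 4278, 3517 and 4026 against 6472, 2771, 4076 and 4210.4. Wild-type M23 was the highest and wild-type M125 the lowest of the 7 arrays, and the knockout arrays lay between them. Its difference was -0.093 ± 0.26 (limma adjusted p = 0.934).

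Slc25a26, the S-adenosylmethionine carrier that supplies methyl groups to the matrix, read 2357, 2649 and 1675 against 3310.3, 2822, 2247 and 3635. Knockout M140 was lowest, but knockout M4 and M10 lay above wild-type M128. The difference was -0.43 ± 0.22 (limma adjusted p = 0.49), and its dimmer probe set 1453886_a_at, at 634, 691 and 487 against 806, 747, 691 and 749.8, differed by -0.32 ± 0.12 with an unadjusted p of 0.0304. Slc25a42, the coenzyme A carrier, read 1122, 1409 and 879.8 against 1362, 1588, 1234 and 1335, with the groups overlapping at knockout M10, and differed by -0.30 ± 0.16 (limma adjusted p = 0.535).

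Slc25a39, the glutathione carrier, was the brightest of this group at 26172, 27000.4 and 24160.1 against 28516, 27814, 22732 and 23852. Its groups overlapped fully, with a difference of 0.0080 ± 0.096 and an interval of -0.21 to 0.23. Its other probe sets differed by -0.038 and -0.15. The NAD carrier Slc25a51 ranged from 5184 to 6657 against 4420.4 to 6461, with a difference of 0.11. The peroxisomal coenzyme A carrier Slc25a17 ranged from 595 to 645 against 497 to 717, with a difference of 0.079. Its other probe set 1450353_at, too dim to be tested, went the other way, at 401 to 429 against 434 to 439 without overlap. Over the 7 carriers of this group the median was -0.093, with 4 below and 3 above 0 and 1 at an unadjusted p under 0.05.

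Among the amino acid carriers, Slc25a22, which brings glutamate into the matrix with a proton, read 2199, 2272 and 2235 against 2634, 3491, 2700.0 and 2806. The knockout values lay within a narrow band below all wild-type arrays, of which M125 was highest. The means were 2236 ± 36.3 (SD, n = 3) against 2908 ± 395 (SD, n = 4), a difference of -0.37 ± 0.13 (limma adjusted p = 0.361; unadjusted p = 0.0242; exact permutation p = 0.0286), and -0.27 within day 1.

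Slc25a29, the carrier of basic amino acids such as arginine and lysine, read 1664, 2069.6 and 2069 against 2420.3, 2362, 2089 and 2329. The groups did not overlap, but knockout M10 and M140 came close to wild-type M128. The difference was -0.25 ± 0.12 (limma adjusted p = 0.484; unadjusted p = 0.0757; exact permutation p = 0.0571). All 5 of its probe sets lay below 0, between -0.29 and -0.13. The groups also stayed apart on 1438188_x_at, but overlapped on 1423979_a_at and touched on 1423980_at and 1423981_x_at. Within day 1 the chosen probe set differed by -0.014 and the others by -0.25 to -0.15.

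Slc25a13, the aspartate/glutamate carrier citrin of the malate-aspartate shuttle, read 2918, 2322 and 3503 against 2866, 3898, 2810.4 and 3233. The groups overlapped, with a difference of -0.14 ± 0.18 (limma adjusted p = 0.83). Slc25a12 could not be read, so that the aspartate/glutamate carriers are covered only in part. Slc25a15, an ornithine carrier, read 1049.8, 957 and 1393 against 1543, 1301, 1191 and 1358: knockout M4 and M10 lay below every wild-type array and knockout M140 above wild-type M125, M128 and M158. It differed by -0.26 ± 0.15 (limma adjusted p = 0.548). The branched-chain amino acid carrier Slc25a44 ranged from 1482 to 1548 against 1149.9 to 1606, and its probe sets disagreed in sign, at 0.10 for the brightest and -0.23 for 1456465_at. The ornithine carrier Slc25a2 was dim, at 259.9 to 285 against 254 to 271. Of the 6 tested amino acid carriers 4 lay below 0 and 2 above, with a median of -0.20.

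**Figure D3:**
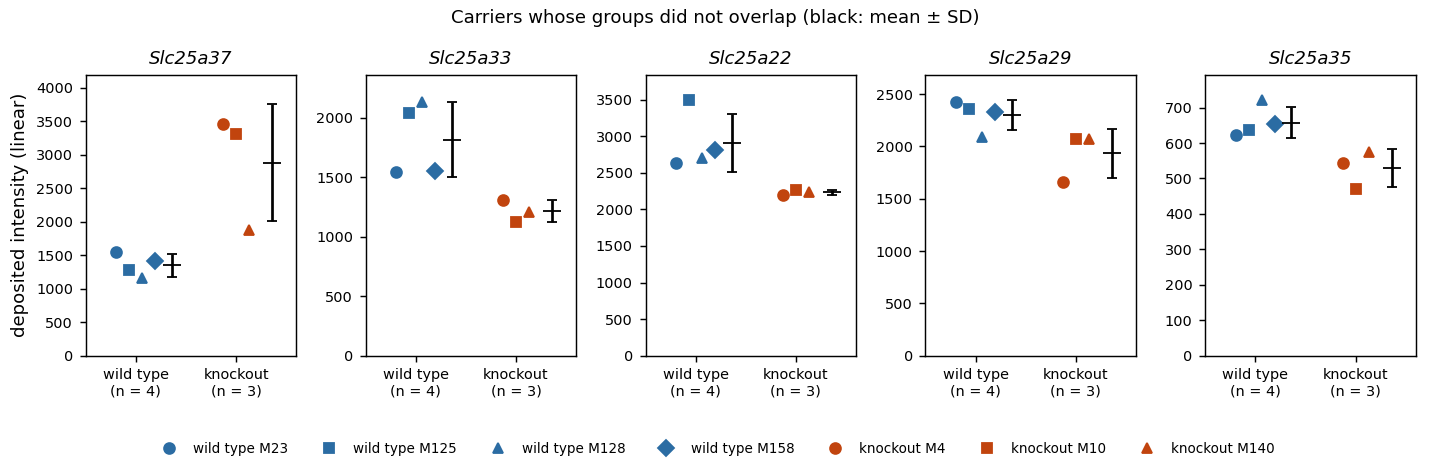
Deposited intensities (linear y axes starting at 0) of the 5 carriers whose groups did not overlap, 1 point per array, with the mean and SD of each group in black. Slc25a37 is higher on all knockout arrays, with M140 nearest to the wild type, and the 4 others are lower on all knockout arrays.

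Among the energy carriers, Slc25a4, the ADP/ATP carrier of heart and muscle, reached the upper limit on all 7 arrays with its brightest probe sets 1424562_a_at and 1455069_x_at, and gives no fold. Its probe set 1434897_a_at below the limit read 9846, 10679 and 10737 against 12466, 10408, 10679 and 9984, with overlapping groups and a difference of -0.059 ± 0.11. The dimmest, 1424563_at, read 823, 993 and 914 against 1278, 993, 993 and 1162 and differed by -0.27 ± 0.12 (limma unadjusted p = 0.0453), with knockout M10 at the level of wild-type M125 and M128. Slc25a5, the ADP/ATP carrier of most tissues, read 29298, 26019 and 29513 against 24778, 26341, 20971 and 26362. Knockout M4 and M140 were the highest of the 7 arrays and wild-type M128 the lowest, and knockout M10 lay among the wild-type arrays. The difference was 0.20 ± 0.096 (limma adjusted p = 0.462), and 0.49 within day 1. All 8 probe sets of Slc25a5 lay above 0, between 0.026 and 0.33, and 0 had an unadjusted p under 0.05; probe sets of the x_at type, as the chosen one, may also bind related transcripts.

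Slc25a3, the phosphate carrier that supplies ATP synthase, read 44868, 44424 and 43596 against 39356, 43596, 41637 and 43208. It was at the limit on knockout M4 and M10, so that its difference of 0.080 ± 0.047 (limma adjusted p = 0.575) is compressed. The groups only touched: the lowest knockout value, on M140, equalled the highest wild-type value, on M125. The calcium-regulated ATP-Mg/phosphate carriers, which adjust the adenine nucleotide pool of the matrix, showed overlapping groups. Slc25a23 ranged from 1024 to 1337 against 1040.1 to 1190.2 and Slc25a25 from 1292 to 1807 against 1293 to 1723, with differences of 0.056 and 0.017. Slc25a24 was dim, at 155 to 168 against 145 to 155.

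Among the carboxylate carriers, Slc25a11, the oxoglutarate/malate carrier of the malate-aspartate shuttle, read 10241, 9657 and 10862 against 5029, 14081, 12229 and 10325. Wild-type M23 lay far below every other array and wild-type M125 was highest, and the knockout arrays lay between them. The means were 10253 ± 602 (SD, n = 3) against 10416 ± 3905 (SD, n = 4). The difference was 0.074 ± 0.32 with M23 and -0.24 without it (limma adjusted p = 0.96 and 0.556). The 5′ to 3′ ratio of the Gapdh control probe sets was also lowest on M23, 0.0978 against 0.34 to 0.777 on the others, and its experiment sheet says that 2 processings were combined; their part was not tested. Slc25a10, the dicarboxylate carrier, ranged from 1258 to 1761 against 1284 to 1453; its probe sets differed by 0.072 and -0.17.

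Relatives of the uncoupling proteins had overlapping groups. Slc25a14 (1026 to 1053 against 974 to 1239) and Slc25a30 (922 to 1027 against 976 to 1187) differed by -0.060 and -0.069. Slc25a35, whose substrate is not settled, read 544, 471 and 574 against 621, 636, 721 and 652. Every knockout array lay below every wild-type array, by a margin smaller than the range within either group. The difference was -0.31 ± 0.090 (limma adjusted p = 0.286; unadjusted p = 0.00906; exact permutation p = 0.0286), and -0.32 within day 1. Slc25a46, an outer membrane protein of mitochondrial fusion and fission, read 5058, 5474 and 5043 against 5963, 3681, 4507 and 4954, with wild-type M23 highest and wild-type M125 lowest, and differed by 0.14 ± 0.17 (limma adjusted p = 0.82). Slc25a45, Slc25a47, Slc25a48 and Slc25a53 differed by -0.096, 0.098, -0.15 and -0.033, each with overlapping groups, where equal values count as overlap. For Slc25a45 and Slc25a48 the groups only touched: the highest knockout equalled the lowest wild-type value, at 1405 and 851.

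Array by array, the family as a whole showed small shifts. The median deviation of the 30 tested carriers from their 7-array means lay between -0.029 and 0.0095 on the knockout arrays and between -0.011 and 0.072 on the wild-type arrays, where M125 stood highest. Over the 29 tested carriers below the upper limit, knockout M140 was below all 4 wild-type arrays for 10 carriers and above all of them for 2. For knockout M4 these counts were 8 and 4, and for knockout M10 9 and 6. The carriers whose groups did not overlap are among these on every knockout array. Set against the other wild-type arrays, M128 was below all for 12 and above all for 7, and M23 for 8 and 9. For M125 these counts were 3 and 10, and for M158 5 and 3. The same counts over all tested genes were not made, so that no shift of the knockout arrays can be read from them. Every array gave some of the extremes. Wild-type M23 gave the highest of the 7 values for 7 carriers, M128 for 7, M125 for 6 and M158 for 1. Knockout M4 gave it for 3, M10 for 4 and M140 for 1.

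**Figure D4:**
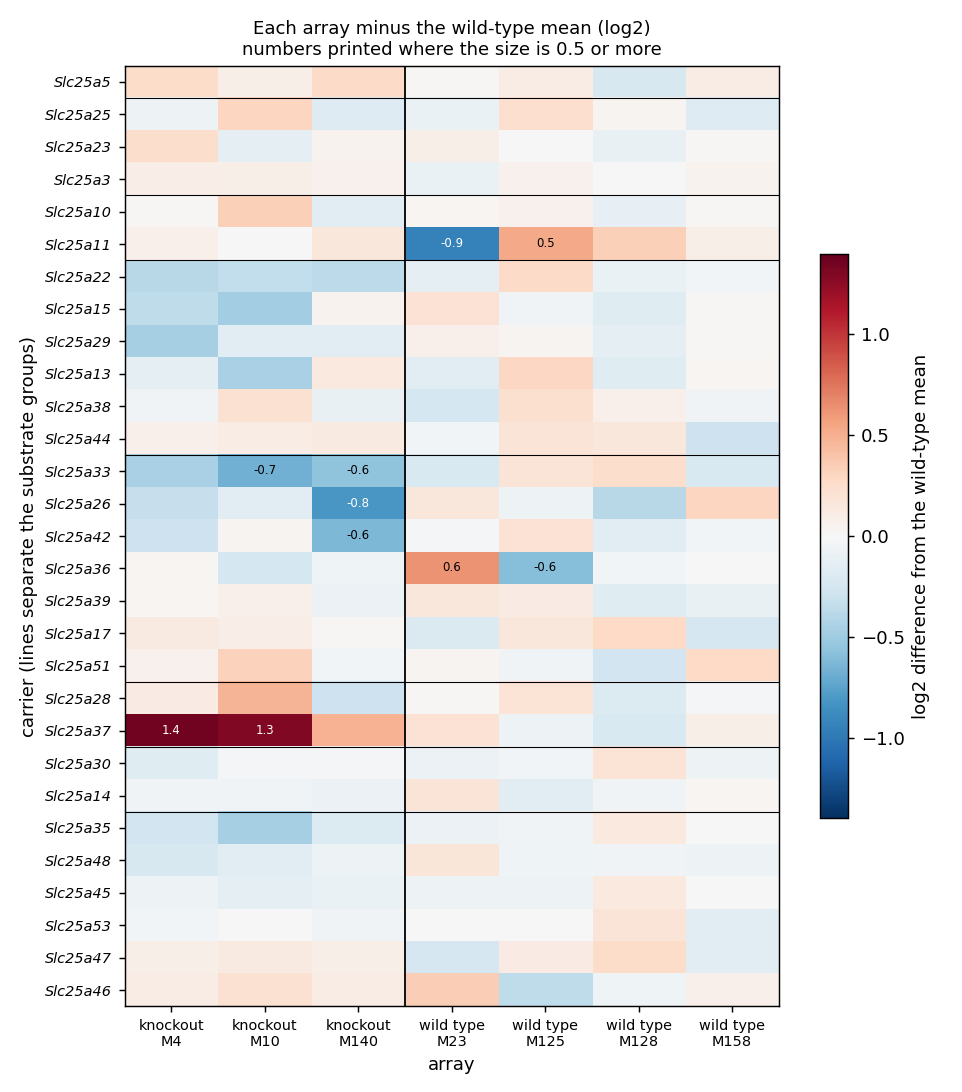
Each array (columns, knockout left of the line) minus the wild-type mean of each carrier (rows, by substrate group), as a log2 difference in colour. The strongest cells are Slc25a37 on knockout M4 and M10 and Slc25a11 on wild-type M23, and no column is coloured one way from top to bottom.

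Lists of genes that work beside the carriers were read in the same fit, where 12.2% of all tested genes had an unadjusted p under 0.05 by limma. Of the 13 tested genes of carrier insertion, the TOM, TIM9/10 and TIM22 machinery that brings carriers to the inner membrane, 12 lay below 0 and 1 above, where 50.6% of all tested genes lay below 0; the median was -0.085 and the differences ran from -0.25 to 0.089. Agk, a lipid kinase that is also a subunit of the TIM22 complex, was the 1 with an unadjusted p under 0.05. It read 1025, 968 and 1119 against 1283, 1216, 1154 and 1301, without overlap, and differed by -0.25 ± 0.085 (limma adjusted p = 0.333), but by -0.044 within day 1. Among 14 tested genes of other mitochondrial transport, 10 lay below and 4 above 0. The 10 include Ckmt2, which was saturated on every array, so that its sign carries no information. They also include Vdac1, which read close under the upper limit and differed by -0.00076. Of the 14 genes, 1 had an unadjusted p under 0.05. This was Sfxn3, a sideroflexin that carries serine, at 1308, 1248 and 1399 against 1013, 1147, 1029.7 and 953 (difference 0.34 ± 0.090, limma adjusted p = 0.255), higher on every knockout array. None of the 4 tested family members under other names (Ucp1, Ucp3, Mtch1 and Mtch2) had an unadjusted p under 0.05 in limma's fit. The same held for the 4 enzymes of the malate-aspartate shuttle. Of these enzymes, Mdh1 was saturated on every array and Mdh2 was saturated or nearly so, so that a difference in either could be hidden. Ucp3, a fatty acid-induced relative of the uncoupling protein of brown fat, read 594, 686 and 569 against 662, 1418, 1168 and 679 and differed by -0.59 ± 0.27 (limma adjusted p = 0.446), with wild-type M23 and M158 at the level of the knockout arrays.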

How the data were processed

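Left ventricle RNA of 7 mice was measured on MOE430A arrays, 1 per mouse, and samples were grouped by their titles. The authors deposited single-colour intensity values for 22690 probe sets, with software, background correction and scaling not given in the sources used here. From the values, array medians were 671 to 699, the lowest value of each array was 86.5 to 92.3, and each array stopped at an upper limit (a value within 0.5 of the array's highest was called at the limit). Some probe sets held the same value on several arrays, such as Slc25a14 at 1053 on knockout M4 and M10 and wild-type M128. The reason was not examined. Per the file headers, the deposited experiment sheets come from the scanner workstation; they gave the hybridization days, coded 1 to 4.

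After 64 control probe sets were left out, the platform table named 1 gene for 20380 of 22626 probe sets (691 had several, 1555 none), and 20351 matched the RefSeq gene table (GRCm38.p6) by gene number. Values were taken as log2(intensity + 16). Probe sets above the 40th percentile of their array on at least 3 arrays (13836) were fitted with limma 3.58.1 (lmFit, eBayes with trend, two-sided, no covariate) in R 4.3.3, with Benjamini-Hochberg adjustment over all of them; unadjusted p-values and 95% intervals are from the same fit. A tie for the highest mean was broken by probe set name. Permutation tests were exact, over 35 splits. The fit was tested on simulated data.

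Named with values on every array were carriers with an unadjusted p under 0.05, with groups that do not overlap, of the highest mean in their substrate group, or with another probe set of opposite sign at that p (0 cases), and list genes with that p. Values of further carriers were added after they were seen. The members and lists were chosen with earlier results of these data known. Alternatives were the offset, quantile normalization, normexp background, the filter, eBayes without trend, array weights, hybridization day, Myl7 as a covariate, other probe sets, and arrays left out. Nothing pairs the mice. P-values measure the spread between these arrays, whose number, 3 and 4, limits the precision.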

Additional observations from a re-analysis of the deposited data

Results flagged for a closer look

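Among the 4 wild-type arrays, 1 array stood apart from the other 3 for 3 of the 32 carriers, where chance gives about 1 in 20 such cases. Slc25a48, grouped here with the carriers of unsettled substrate, read 1011 on M23 against 851 to 864 on the others. Slc25a30, a relative of the uncoupling proteins, read 1187 on M128 against 976 to 1011. The dim Slc25a24 read 145 on M23 against 154 to 155, a spread of a few intensity units near the lower end of the scale. M23 also had the lowest Gapdh 5′ to 3′ ratio, 0.0978, and the part of this was not tested.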

How the results depend on the processing

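The 5 carriers whose groups did not overlap kept their direction under all 22 alternatives that gave them a value, with Slc25a37 between 0.70 and 1.33, Slc25a33 between -0.81 and -0.40, Slc25a22 between -0.46 and -0.27, Slc25a35 between -0.37 and -0.23 (not tested with the 60th percentile filter) and Slc25a29 between -0.39 and -0.014. Because their groups do not overlap, leaving arrays out, array weights or day as a fixed block could not reverse them. The kept direction is therefore no separate support, and only the sizes are informative there. Limma's adjusted p ran from 0.0318 to 0.727 for Slc25a37, which passed with array weights and without knockout M140, and stayed above 0.05 for the others. The count of carriers that passed was 1 with array weights, where 405 of 8867 genes passed, and 0 to 1 with 1 array left out; at a threshold of 0.10 it was 0. The share of all tested genes at an unadjusted p under 0.05 moved too, from 12.2% to 23.8% with array weights and 16% with day as a fixed block, and was 13% with the mean of all probe sets. The count of carriers lower at that p was 8 with array weights, 1 with day as a fixed block, 5 with the mean of all probe sets and 2 to 5 with 1 array left out (5 without wild-type M128). The count higher was 3 with quantile normalization, 2 with array weights, 2 with day as a fixed block, 2 as a random block, 2 without knockout M10 and wild-type M125, and 1 to 2 with 1 array left out (2 without knockout M10). The median over the carriers was -0.033 with day as a fixed block, which equals the day 1 pair (-0.033), -0.034 as a random block, -0.055 with the mean of all probe sets, -0.033 with probe sets below the limit, -0.032 without M10 and M125, -0.11 without M23 and M158, and -0.052 to 0.0083 with 1 array left out.

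Values of carriers with overlapping groups changed sign as follows; the cause was not tested. Slc25a39 was -0.025 with quantile normalization, -0.061 with the mean of all probe sets and -0.049 to 0.060 with 1 array left out. Slc25a11 was -0.17 with day as a fixed block, -0.00055 as a random block, -0.36 without M23 and M158 and -0.24 to 0.25 with 1 array left out. Slc25a13 was 0.32 with day as a fixed block, 0.11 without M10 and M125 and -0.28 to 0.010 with 1 array left out. Slc25a28 was -0.095 with day as a fixed block, -0.023 without M10 and M125 and -0.088 to 0.29 with 1 array left out. Slc25a14 was 0.043 without M23 and M158 and -0.11 to 0.0012 with 1 array left out, and Slc25a46 was -0.016 without M10 and M125. No paired analysis was possible because the mouse numbers differ between the groups. Signal near the upper limit bounds what can be seen of Slc25a4 and Slc25a3, and the raised lower end of the scale bounds what can be seen of Slc25a2 and Slc25a24.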

Other observations

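Wild-type M23 also set the lowest value of Got1, the cytosolic aspartate aminotransferase of the malate-aspartate shuttle, as it did for the shuttle carrier Slc25a11. Got1 read 18107, 21328 and 18154 against 5635, 26059, 12710.1 and 13889, so that M23 lay far below every other array and the knockout arrays lay within a narrow band. Its difference was 0.59 ± 0.43 (limma adjusted p = 0.661). Got2 was lowest on M23 too, by a narrow margin, and Slc25a13 was not: Slc25a13 read 2866 and Got2 30261 on M23, against 2810.4 to 3898 and 31808 to 38024 on the other wild-type arrays. Mdh1 and Mdh2 of the shuttle stood at or near the upper limit, at 45552 and 44680 on M23. M23 also had the lowest Gapdh 5′ to 3′ ratio, 0.0978, and the part of this was not tested.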
